A study of Homo sapiens with 9 samples.

Results

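The regions described here were the widest accessible domains of the series: 1797 stretches of chromosomes 1 to 22 in which at least 1 of the 3 deposited peak lists held an interval of 1500 bp or more. They were 1797 of the 109960 regions left when all intervals of the 3 lists were merged. The members were selected on measured values, namely the interval widths in all 3 lists, so widths, summit numbers and peak strength of the members are given as a description with no test. The narrowest intervals that entered were 1500 bp wide in every list, and the widest that stayed out were 1 bp narrower in NTG and siINO80#2 and 1498 bp wide in siINO80#1.

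The assay was ATAC-seq, which reads out open chromatin through the DNA sites that a transposase can reach, and the cells were HepG2, a line from a human liver cancer grown in DMEM with fetal bovine serum. Cells received 1 of 3 siRNAs at 50 nM for 72 h: the control siRNA NTG, siINO80#1 or siINO80#2, the latter pair being directed at INO80, the ATPase of a nucleosome remodelling complex. Each siRNA had 3 replicate samples, A to C, but the files used held 1 peak list per siRNA, so that no spread between replicates could be computed and differences between lists compare 3 lists, not conditions. The knockdown itself could not be checked, because no RNA or protein values were among the files used. The silencing was transient, and 1 line stood for liver cancer cells. A start site of 18 of 23 liver transcription factor genes and of 17 of 20 genes of liver secreted proteins lay in some accessible region, but so did one of 16 of 17 abundant housekeeping genes and of 11148 of all 19222 protein-coding genes, so these counts do not mark the cells as liver cells. A start site was that of any annotated transcript of the gene in GENCODE release 44. The NTG list held 68784 intervals, siINO80#1 68344 and siINO80#2 52399. Read numbers were not given. A rough estimate from the lowest background level behind the peak scores of each list put the libraries of siINO80#1 and siINO80#2 at 1.43 and 1.44 times the reads of NTG. The part of depth in any difference between lists was not tested.

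Most accessible sites are about as long as the gap left by 1 or a few displaced nucleosomes at a promoter or an enhancer. A longer stretch arises where neighbouring sites are close enough for a peak caller to join them, and a summit is a local maximum within such an interval. Promoters in CpG islands, which are rich in G, C and CG dinucleotides, are often open on both sides of the start site, and head-to-head genes share 1 open region between their start sites. AP-1 is the dimer of JUN and FOS proteins that binds many enhancers, and SP and KLF proteins and NFY bind promoter elements.

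The sequences below cover 200 bp around the strongest summit of 9 members on the forward strand of GRCh37. They were chosen to show the kinds of sequence in which wide domains lay: the domain of 2 U6 RNA genes, where the window lies in a long non-coding RNA gene and holds neither U6 gene, and an intergenic domain, both among the widest in all lists, a promoter with stable edges, a histone promoter, the promoter of INO80, and domains wide mainly in 1 or 2 lists. Capitals mark matches to the motifs searched on both strands (SP/KLF GGGCGG, NFY CCAAT, AP-1 TGANTCA, ETS CCGGAAG, CRE TGACGTCA, YY1 AAGATGGCG, NRF1 GCGCATGCG, FOXA TGTTTAC, HNF4A CAAAGTCCA and CEBP TTGCNNCAA).
Long non-coding RNA in the domain of RNU6-7 and RNU6-8, chr14:32670493-32670692: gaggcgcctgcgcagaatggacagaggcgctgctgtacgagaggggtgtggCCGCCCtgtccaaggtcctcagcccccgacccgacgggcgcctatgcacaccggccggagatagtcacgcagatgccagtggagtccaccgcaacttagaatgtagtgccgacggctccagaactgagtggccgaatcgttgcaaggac
Intergenic, upstream of TBL1XR1, chr3:177076367-177076566: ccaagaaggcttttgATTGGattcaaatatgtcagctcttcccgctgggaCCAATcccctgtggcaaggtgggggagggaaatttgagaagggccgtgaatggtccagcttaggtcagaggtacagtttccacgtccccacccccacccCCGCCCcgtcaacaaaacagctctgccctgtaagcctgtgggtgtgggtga
SGK1 promoter, chr6:134496068-134496267: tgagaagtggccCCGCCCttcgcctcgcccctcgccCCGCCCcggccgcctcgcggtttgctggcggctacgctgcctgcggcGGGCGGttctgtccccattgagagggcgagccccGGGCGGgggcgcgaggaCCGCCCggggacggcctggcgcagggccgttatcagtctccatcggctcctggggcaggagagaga
H2BC5 promoter, chr6:26158097-26158296: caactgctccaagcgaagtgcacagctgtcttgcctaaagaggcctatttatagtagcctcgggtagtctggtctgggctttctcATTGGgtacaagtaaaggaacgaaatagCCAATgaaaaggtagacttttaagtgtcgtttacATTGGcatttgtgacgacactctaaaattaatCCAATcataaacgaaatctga
INO80 promoter, chr15:41408687-41408886: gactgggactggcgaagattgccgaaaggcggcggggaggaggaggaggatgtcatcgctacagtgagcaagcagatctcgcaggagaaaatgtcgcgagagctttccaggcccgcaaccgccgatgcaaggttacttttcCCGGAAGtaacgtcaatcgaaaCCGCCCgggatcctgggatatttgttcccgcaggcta
3′ of APOB, wide in NTG and siINO80#1, chr2:21221419-21221618: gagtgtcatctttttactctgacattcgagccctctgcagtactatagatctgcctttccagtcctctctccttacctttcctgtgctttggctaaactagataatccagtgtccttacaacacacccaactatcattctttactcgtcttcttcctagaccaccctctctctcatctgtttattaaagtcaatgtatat
XIRP2 intron, in the NTG list only, chr2:167853445-167853644: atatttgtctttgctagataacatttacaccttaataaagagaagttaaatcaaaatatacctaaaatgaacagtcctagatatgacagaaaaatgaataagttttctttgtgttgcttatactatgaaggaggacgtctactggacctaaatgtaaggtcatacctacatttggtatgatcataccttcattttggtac
Intergenic, wide in both siINO80 lists, chr18:26744215-26744414: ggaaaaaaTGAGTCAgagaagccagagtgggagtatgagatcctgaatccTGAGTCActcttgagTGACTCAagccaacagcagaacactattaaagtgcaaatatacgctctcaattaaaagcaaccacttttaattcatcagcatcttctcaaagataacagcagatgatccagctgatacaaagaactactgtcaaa
Intron of SLC2A13, wide in both siINO80 lists, chr12:40225797-40225996: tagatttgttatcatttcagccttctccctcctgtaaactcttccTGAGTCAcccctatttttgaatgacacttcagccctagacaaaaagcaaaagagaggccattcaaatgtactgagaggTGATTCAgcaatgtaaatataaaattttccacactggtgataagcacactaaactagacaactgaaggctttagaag
The SGK1 window held 5 GGGCGG matches and 25 CG dinucleotides at a GC content of 75.5%. The H2BC5 window held 4 CCAAT matches at 41.5% GC, and the INO80 window held 1 GGGCGG and 1 CCGGAAG match. No motif searched was found in the windows 3′ of APOB and in the XIRP2 intron, which had GC contents of 41.5% and 31.0%. The chromosome 18 window held 3 AP-1 matches and that in SLC2A13 held 2. Over all 109960 regions, a window of this size held a match to AP-1 in 15.6%, SP/KLF in 10.4%, NFY in 25.5%, ETS in 2.30%, FOXA in 4.96%, CEBP in 1.86%, HNF4A in 0.793%, CRE in 0.325%, YY1 in 0.305% and NRF1 in 0.248%. A match is a description, not a bound site.

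Wide intervals made up a small part of each list by number and a larger part by sequence. NTG held 1066 (1.55% of its intervals, Wilson 95% interval 1.46 to 1.64), siINO80#1 held 1226 (1.79%, 1.70 to 1.90) and siINO80#2 held 778 (1.48%, 1.38 to 1.59). These intervals cover counting error only, and regions of 1 library are not independent. Wide intervals took 6.33%, 7.24% and 5.85% of the bases covered by all intervals of the NTG, siINO80#1 and siINO80#2 lists. The widest single interval was 3565 bp in the NTG list, 3460 in siINO80#1 and 3428 in siINO80#2.

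Nearly all wide intervals were composite. In NTG, 99.6% held 2 or more summits, against 21.7% of narrower intervals, and the shares were 98.8% against 24.7% in siINO80#1 and 98.5% against 25.1% in siINO80#2. The NTG, siINO80#1 and siINO80#2 lists had medians of 4, 5 and 4 summits and at most 13, 12 and 12. Per kb, wide intervals held 2.53, 2.59 and 2.55 summits in the NTG, siINO80#1 and siINO80#2 lists, near the 2.36, 2.44 and 2.40 of intervals between 1000 and 1500 bp. The median distance between neighbouring summits was 295 bp in the NTG list, 282 in siINO80#1 and 294 in siINO80#2. Those between 1000 and 1500 bp had medians of 278, 270 and 270 bp, so wider intervals held more summits at a slightly larger spacing.

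The wide intervals were strong, though hardly stronger than the next narrower ones. Their strongest summits had a median fold enrichment over local background of 6.92 in NTG, 6.82 in siINO80#1 and 6.44 in siINO80#2, against 3.37, 3.14 and 3.16 over all intervals of these lists. For intervals between 1000 and 1500 bp the medians were 6.70, 6.51 and 6.17. A median of 66 reads lay at the strongest summit in NTG, 83 in siINO80#1 and 75 in siINO80#2, as solved from the deposited fold enrichment and p-value.

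Of the 1797 domains, 418 (23.3%) reached 1500 bp in all 3 lists. Another 352 did so in NTG alone, while siINO80#1 and siINO80#2 alone held 445 and 145. Both siINO80 lists without NTG held 141, NTG with siINO80#1 held 222 and NTG with siINO80#2 held 74. With the 778 widest intervals taken from each, NTG alone held 19.2% of domains (19.6% at 1500 bp), siINO80#1 alone 17.5% (24.8%) and siINO80#2 alone 18.4% (8.07%). Reaching the width in 1 list did not mean being closed in the others: 1783 domains (99.2%) overlapped an interval in every list, against 26.7% of all merged regions, and in 1600 at least 50% of the domain was covered in every list. Width chose the members, so nothing is read from that difference. Of the other domains, 1 had an interval in NTG only, 8 in NTG and siINO80#1, and 5 in both siINO80 lists without NTG.

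Many domains wide in 1 list were narrower or split in another. Of the 1066 domains of 1500 bp or more in NTG, siINO80#1 held 640 at that width, 300 as a single narrower interval and 125 as 2 or more narrower intervals, while 1 had none. In siINO80#2 the same 1066 were 492 wide, 363 single and narrower, 204 split and 7 absent. Seen from the other side, NTG held 640 of the 1226 domains wide in siINO80#1 at full width and 248 split, with 3 absent. Of the 778 wide in siINO80#2, NTG held 492 at full width, 101 split and 2 absent. Where a domain was split, the pieces still covered a median of 1326 bp in siINO80#1 and 1302.5 bp in siINO80#2 for domains wide in NTG, and 1346.5 bp in NTG for those wide in siINO80#1. A split therefore left most of the stretch inside intervals. In bulk samples, fewer cells with an open stretch and a less open stretch in each cell cannot be told apart.

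**Figure D1:**
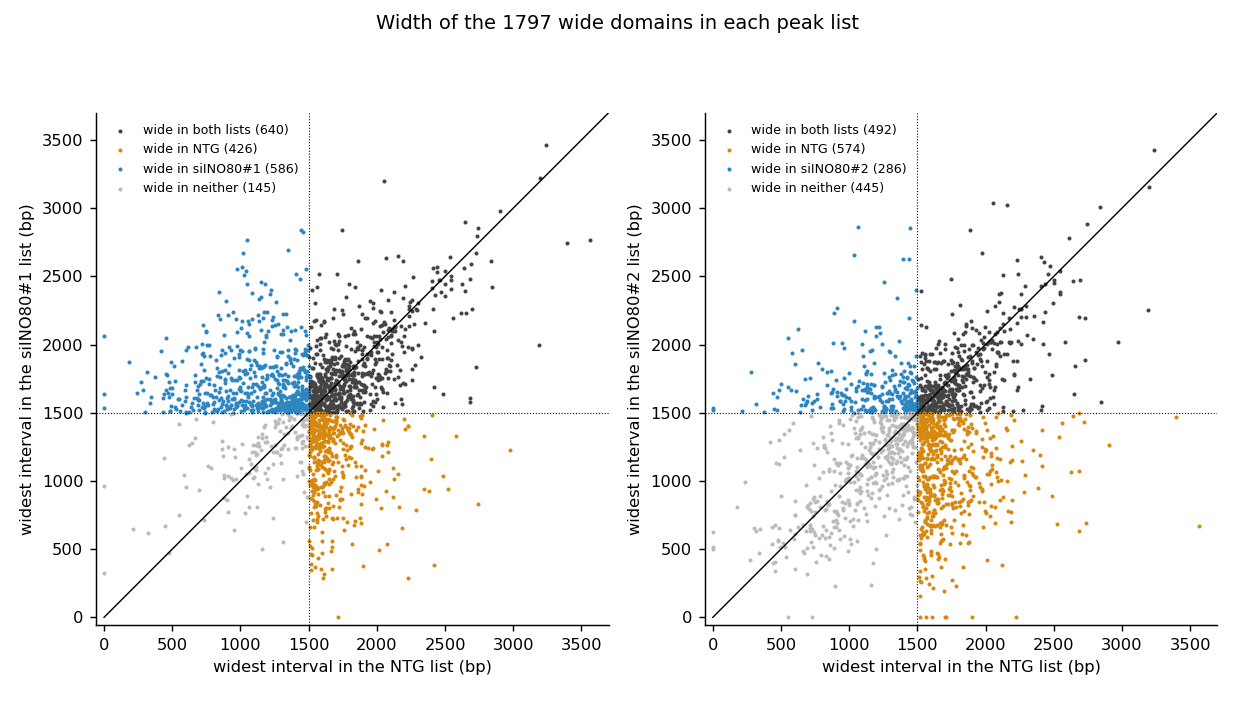
Each point is 1 of the 1797 domains, with the width in bp of its widest interval in the NTG list on the horizontal axis and in the siINO80#1 (left) or siINO80#2 (right) list on the vertical axis; dotted lines mark 1500 bp, the diagonal marks equal width, 0 means no interval, and legends give the number of domains of each colour. Points spread below 1500 bp on each axis because 1 wide list was enough to enter: 640 domains were wide in both lists on the left and 492 on the right.

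Over the members, the median width of the widest interval was 1548 bp in the NTG list, 1593 in siINO80#1 and 1437.5 in siINO80#2. The siINO80#1 list lay above NTG (median log2 ratio 0.04) and the siINO80#2 list below it (-0.08). In NTG, 17.5% of the members present were broken into 2 or more intervals, against 11.1% in siINO80#1 and 22.4% in siINO80#2. The lists of the 2 siRNAs against INO80 thus lay on opposite sides of NTG, and neither difference had a replicate check.

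A change of at least 1.5-fold in width was counted in each direction. NTG was the wider list over siINO80#1 in 175 of 1791 members (9.77%), against 17.6% of all regions with an interval in both. The siINO80#1 list was wider than NTG in 300 (16.8%), against 18.6%. NTG was wider than siINO80#2 in 340 of 1783 (19.1%), against 24.4%, and siINO80#2 was wider than NTG in 135 (7.57%), against 13.7%. Between the siINO80 lists, siINO80#1 was wider in 397 of 1788 (22.2%), against 24.7%, and siINO80#2 in 86 (4.81%), against 11.3%. The rule used these widths, and nothing is read from the lower shares of the members. By covered bases instead of the widest interval, these counts were 116 (6.48%) and 169 (9.44%) for NTG and siINO80#1, in the same order of directions. They were 230 (12.9%) and 74 (4.15%) for NTG and siINO80#2, and 245 (13.7%) and 41 (2.29%) for siINO80#1 and siINO80#2. The share over all regions was computed for the widest interval only, so nothing is read from the counts by covered bases.

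The domain widest in all 3 lists together held the start site of SMPDL3A, which encodes a secreted phosphodiesterase, at chr6:123109991-123113450. Its widths were 3238, 3460 and 3428 bp in the NTG, siINO80#1 and siINO80#2 lists, with 7, 7 and 10 summits. Next came chr14:32670229-32673471, which held the U6 small nuclear RNA genes RNU6-7 and RNU6-8, whose product is part of the spliceosome, at 3196, 3224 and 3158 bp. U6 has many near-identical copies in the genome, and how reads that match several were treated was not given. An intergenic domain at chr3:177075134-177078047, 129 kb upstream of TBL1XR1, measured 2743 bp in the NTG list, 2852 in siINO80#1 and 2881 in siINO80#2. It had a GC content of 53.4% and no annotated start site. Each of these 3 domains was a single interval in every list.

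The start of DIPK2A, which encodes a kinase-like protein of the secretory pathway, lay in chr3:143689762-143692824, at 2838 bp in the NTG list, 2615 in siINO80#1 and 3011 in siINO80#2. MIA2, whose product acts in the export of large cargo from the endoplasmic reticulum, had a transcript start in chr14:39700782-39703351 at 2547, 2503 and 2540 bp, the smallest spread among the 6 domains widest in all lists. A domain over an exon of STXBP6, a gene of a syntaxin-binding protein, and the start of a long non-coding RNA at chr14:25285241-25287879 measured 2639, 2563 and 2465 bp. Over all 418 domains wide in every list, the range of the 3 widths had a median of 204.5 bp (9 to 1264 bp), and it was under 100 bp in 91. The widest interval held the same number of summits in all 3 lists in 24 of these domains (5.74%).

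Other very long domains differed between lists. The longest of all, chr2:21219775-21223339, began 961 bp beyond the 3′ end of APOB, the gene of the structural protein of low density lipoprotein, and overlapped an exon of a long non-coding RNA. It was 1 interval of 3565 bp with 10 summits in NTG and 2764 bp with 12 summits in siINO80#1, but 3 intervals in siINO80#2, the widest 666 bp, together covering 1631 bp. The domain spanning the head-to-head starts of NOA1, a mitochondrial GTPase gene, and POLR2B, which encodes a core subunit of RNA polymerase II, at chr4:57842174-57845568, measured 3395, 2742 and 1466 bp in NTG, siINO80#1 and siINO80#2. In siINO80#2 it was split, and 2 intervals covered 1902 bp. LRRC1, a gene of a leucine-rich repeat protein, went the other way: the widest interval of its start domain at chr6:53657938-53661166 was 2156 bp in the NTG list, 2647 in siINO80#1 and 3023 in siINO80#2. That domain was split into 3 intervals covering 2702 bp in NTG and 2 covering 2811 bp in siINO80#1. An intronic domain in the annotated body of EEF1A1, the gene of a translation elongation factor, at chr6:74221083-74224357, measured 3191, 1996 and 2255 bp.

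Many summits in 1 interval did not mean high enrichment. The interval with the most summits, 13 in NTG, lay in an intergenic domain at chr21:11143734-11146578 and had a fold enrichment at its strongest summit of 2.2, the lowest of all wide intervals of that list. The same domain had 12 summits and a fold enrichment of 2.19 in siINO80#1, and 9 summits over 3 intervals in siINO80#2 at 2.03. The start of LMO7, which encodes a scaffold protein of cell junctions, at chr13:76208340-76211390, held 8 summits in NTG, 9 in siINO80#1 and 12 in siINO80#2. The 8 of NTG lay over 2 intervals covering 2734 bp, while each siINO80 list had 1 interval. LINC02897, a long non-coding RNA gene, at chr1:247274822-247277492, held 4, 12 and 8 summits at widths of 1015, 2671 and 1545 bp. There, 2 intervals covered 1723 bp in NTG and 2 covered 1792 bp in siINO80#2.

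The domains wide in NTG with the least coverage after either siRNA against INO80 lay outside promoters. An intronic domain of XIRP2, a muscle actin-binding protein gene, at chr2:167851886-167853598 was 1713 bp wide with 4 summits in NTG, and neither siINO80 list held an interval there. Its strongest summit had 21 reads in NTG. A domain over an exon of APOB at chr2:21227789-21230014 was 2226 bp with 8 summits in NTG, 291 bp in siINO80#1 and absent in siINO80#2. The domain at chr1:71519055-71520664, in an intron of ZRANB2-AS1, was covered for 1610 bp in NTG, 320 bp in siINO80#1 and none in siINO80#2. The domain at chr16:75853678-75855265, 93.3 kb upstream of CPHXL, was covered for 1588, 357 and 246 bp. At the strongest summit these domains had 21 to 47 reads in NTG, below the median of 66.

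The start of APOB itself lay in another domain of that locus, chr2:21264719-21267275, which measured 2557 bp in the NTG list, 2196 in siINO80#1 and 1426 in siINO80#2 with 6, 5 and 6 summits. In siINO80#2 it was split, and 2 intervals covered 1752 bp. All 3 wide domains at APOB were thus widest in NTG and narrowest or absent in siINO80#2. The strongest summit of the start domain had a fold enrichment of 4.33, 3.46 and 3.16 in the 3 lists, and that of the 3′ domain had 3.48, 2.98 and 2.56.

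In the other direction, 4 domains wide in both siINO80 lists had the least NTG coverage. At the strongest summit these 4 had 19 to 44 reads in NTG, 29 to 60 in siINO80#1 and 30 to 51 in siINO80#2. All lay below the medians of wide intervals in these lists, 66, 83 and 75. At chr6:38250483-38252245, in an intron of BTBD9, NTG covered 373 bp with 1 summit, siINO80#1 1763 bp with 4 and siINO80#2 1503 bp with 5. The intergenic domain at chr18:26743847-26745659 was covered for 486, 1667 and 1798 bp. In the intron shared by SLC2A13, a gene of an inositol transporter, and C12orf40, at chr12:40224791-40226707, the widths were 570, 1880 and 1667 bp, while the fold enrichment at the strongest summit was 9.34 in NTG, 9.29 in siINO80#1 and 7.81 in siINO80#2. The intergenic domain at chr11:80304880-80306598 was covered for 712, 1682 and 1708 bp. Its window at the strongest summit held 1 AP-1 and 1 CEBP match. Of these 4 domains, 3 had an AP-1 match at the summit, the exception being that in BTBD9. An AP-1 match was found in 15.6% of all 109960 regions and in 25.7% of wide regions without a start site. It was found in 34.6% of the 52 start-less domains wide in both siINO80 lists. With 4 domains, nothing is read from the count.

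**Figure D2:**
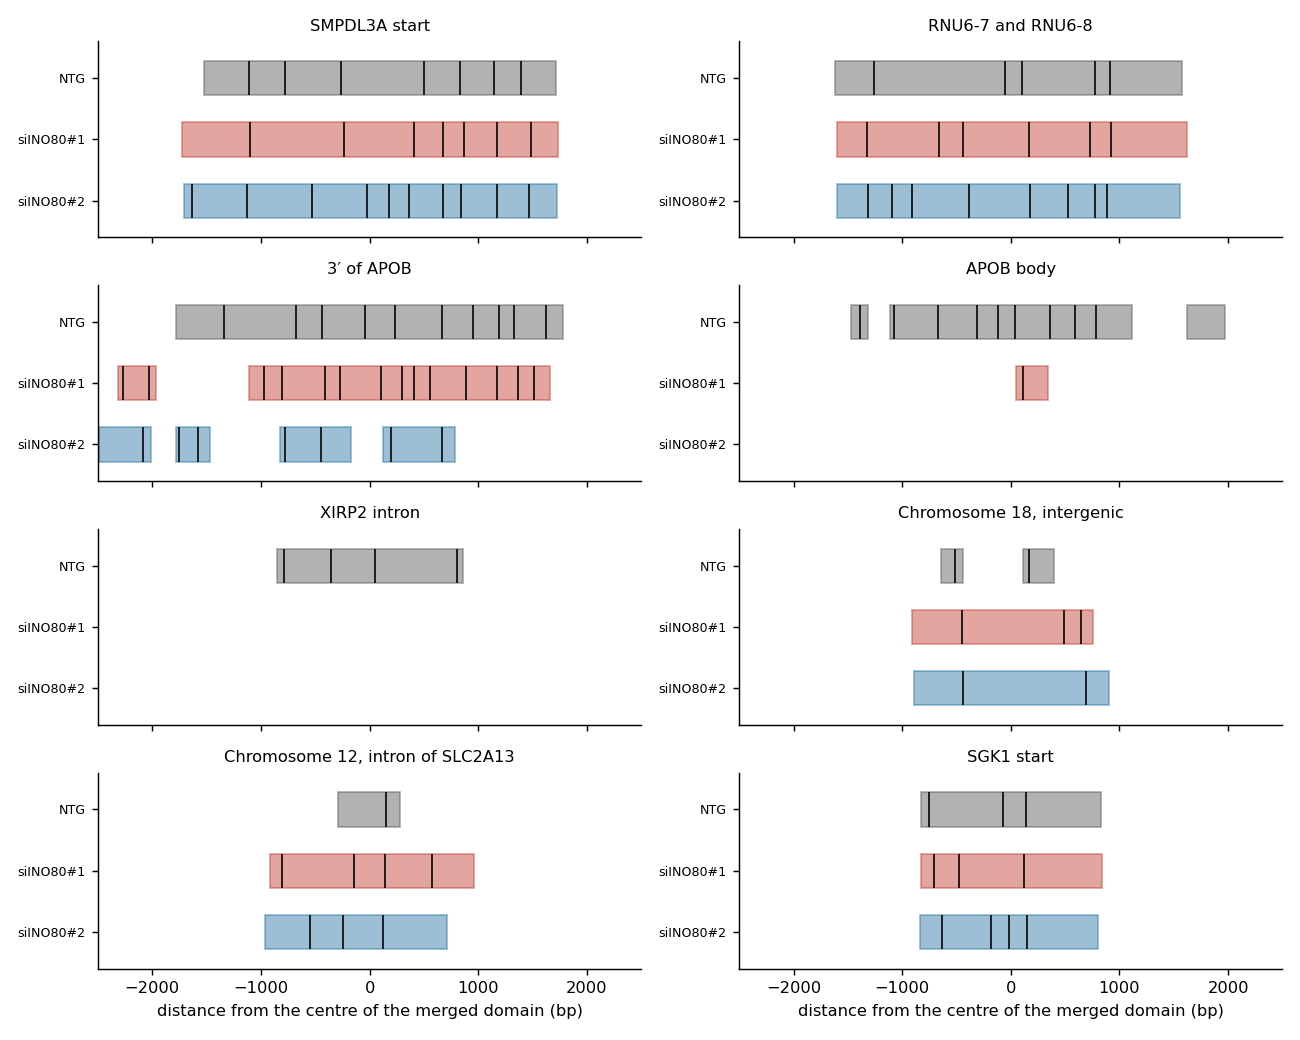
Boxes are the intervals and black lines the summits of 8 named domains in the NTG, siINO80#1 and siINO80#2 lists, drawn to scale by distance in bp from the centre of the merged domain. The SMPDL3A, RNU6 and SGK1 domains were single intervals in all lists, the domains 3′ of APOB, in the APOB body and in the XIRP2 intron were narrower, split or absent in 1 or both siINO80 lists, and those on chromosomes 18 and 12 were covered for 486 and 570 bp in NTG.

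Wide domains lay mainly at promoters. A start site of a protein-coding gene lay in 68.5% of the 1797 merged regions of 1500 bp or more (95% interval 66.3 to 70.6), against 51.1% of the 5781 regions whose widest interval was 1000 to under 1500 bp. The difference was 17.4 percentage points (Newcombe 95% interval 14.9 to 19.9). A longer region has more room for a start site, so the share was also taken for a fixed 1000 bp on each side of the midpoint. It was then 68.5% against 52.3%, a difference of 16.2 points (13.7 to 18.7), and 13.7% over all narrower regions. A start of only a non-coding gene lay in 5.06% of the wide regions, and 3.78% overlapped an exon, 12.2% an intron only and 10.4% no gene. Of the regions between 1000 and 1500 bp, 16.4% were intergenic, and the difference of the wide regions from these was -6.01 points (-7.66 to -4.25).

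Starts of different coding genes on both strands of 1 region were counted as head-to-head, whether or not they faced apart. Such starts were frequent among the widest regions. They were found in 14.8% of the 1231 wide regions with a coding start, against 9.99% of the 2953 coding-start regions between 1000 and 1500 bp, a difference of 4.79 points (2.61 to 7.13). A longer region has more room for both starts: counted within 1000 bp of the midpoint of every region, an alternative chosen after the data were seen, the shares were 14.6% and 10.4%, a difference of 4.23 points (2.03 to 6.56). UCHL5 and RO60 were an example: UCHL5 encodes a deubiquitinase that joins the INO80 complex, and RO60 an RNA-binding protein. Their shared domain at chr1:193027383-193029512 measured 1653 bp in the NTG list, 1862 in siINO80#1 and 2003 in siINO80#2.

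Domains wide in every list held a coding start more often than those wide in 1 list. A coding start lay in 78.7% of the 418 domains wide in all 3 lists and in 62.8% of the 942 wide in 1 list, a difference of 15.9 points (10.7 to 20.7). Head-to-head starts made up 16.7% and 7.86% of these groups, a difference of 8.89 points (5.11 to 13.1), and the shares were the same within 1000 bp of the midpoint. Domains wide in all 3 lists were also longer, with a median merged length of 1975 bp. It was 1614.5, 1637 and 1601 bp for those wide in NTG, siINO80#1 or siINO80#2 alone. The part of length in the coding-start difference was not tested. Of domains wide in siINO80#2 alone, 48.3% held a coding start, against 69.2% of those wide in siINO80#1 alone, a difference of 20.9 points (11.7 to 29.9). Between NTG alone (60.8%) and both siINO80 lists (57.4%) the difference was 3.35 points (-6.07 to 13.0), which was within counting error. These groups were set by the widths in 1 list per siRNA. The shares therefore compare lists, not siRNAs, and the intervals cover counting error only.

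**Figure D3:**
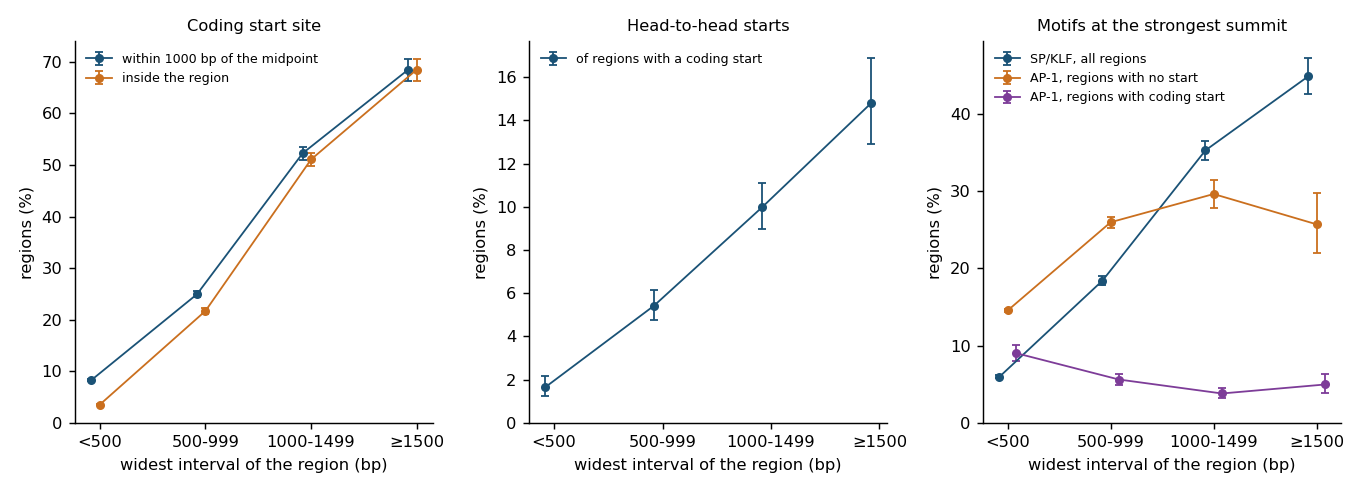
Share of merged regions, in percent with Wilson 95% intervals as bars, in 4 classes of the width in bp of the widest interval: with a protein-coding start site (left), with head-to-head starts among regions with a coding start (middle) and with a motif in the 200 bp at the strongest summit (right). Shares of coding starts and SP/KLF matches rose to 68.5% and 44.9% in the widest class, while AP-1 matches in regions without a start did not rise beyond the class between 1000 and 1500 bp.

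Base composition differed little once regions of the same kind were compared. The 1500 bp around the midpoint had a median GC content of 57.1% in wide regions and 51.9% in those between 1000 and 1500 bp, with CpG observed over expected ratios of 0.73 and 0.55. Among coding-start regions alone the medians were close, 60.9% and 58.7% GC with ratios of 0.78 and 0.74. Among regions without any start site they were 43.1% and 43.2% GC. Of the wide regions, 44.9% had a GGGCGG match in the 200 bp at the strongest summit, against 35.3% between 1000 and 1500 bp and 10.4% over all 109960 regions. Within coding-start regions the shares were 61.7% and 59.0%, a difference of 2.75 points with an interval from -0.52 to 5.96.

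Few motifs set coding-start wide regions apart from those between 1000 and 1500 bp. NRF1 matches were found in 3.09% against 1.93% (difference 1.16 points, 0.15 to 2.36) and ETS matches in 11.9% against 15.2% (difference -3.23 points, -5.39 to -0.93). Both intervals lay off 0, without adjustment for the 104 differences of shares computed in all. CCAAT, the NFY element, was found in 27.5% of wide regions and in 25.5% of all regions.

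AP-1 matches were more frequent in wide regions without a start site. Of these, 25.7% held a match, against 4.96% of wide regions with a coding start, 29.6% of start-less regions between 1000 and 1500 bp and 15.6% of all regions. The difference from the start-less regions between 1000 and 1500 bp was -3.92 points with an interval from -8.06 to 0.55. By class, AP-1 matches were found in 9.38% of domains wide in NTG alone, 11.7% of those of siINO80#1 alone, 22.1% of those of siINO80#2 alone, 15.6% in both siINO80 lists and 8.13% in all 3 lists. Among domains without a start site, the share was 34.6% (18 of 52) for both siINO80 lists and 17.8% (21 of 118) for NTG alone, a difference of 16.8 points (2.91 to 31.6). At a width limit of 2000 bp this difference was 25.7 points (-9.09 to 63.8), and that over all domains turned from 6.23 (0.07 to 13.6) to -3.70 points (-15.8 to 17.3). With a coding start the shares were 3.70% and 3.27%. An AP-1 difference between these lists was known before the domains were chosen, so this is no independent evidence of it. FOXA matches, the element of a pioneer factor family of liver, were found in 9.05% of start-less wide regions, against 9.87% between 1000 and 1500 bp and 4.96% of all regions.

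Coding-start regions were wide most often where the 50 kb on each side were poor in G and C. By deciles of flanking GC, from the lowest to the highest, the wide share was 22.3%, 22.3%, 17%, 14%, 12.2%, 8.41%, 5.60%, 3.59%, 1.75% and 0.612%. Between the lowest tercile (up to 40.9% GC) and the highest tercile (above 45.7%) it was 19.9% of 3810 and 2.36% of 3809 regions, a difference of 17.6 points (16.2 to 18.9). The median GC of the 1500 bp window rose over the same deciles from 53.7% to 62.7%, while the median fold enrichment fell from 7.83 to 3.45 and the median number of coding genes starting in the region or its flanks rose from 1 to 5. The part of signal strength in the width was not tested beyond the split that follows.

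The difference kept its sign but not its size in the subsets looked at. It was 22.2 points (20.5 to 24.0) for windows with a CpG ratio of 0.6 or more, from shares of 25.1% and 2.86%. For the others it was 4.49 points (2.99 to 6.16), from 5.70% and 1.21%. Above the median fold enrichment the difference was 21.1 points (18.8 to 23.2), from 26.2% and 5.12%. Below that median it was 3.14 points (1.94 to 4.58), from 4.60% and 1.46%, so the smaller differences came with lower shares in the lowest tercile. Without chromosomes 2, 6, 14, 16, 17 and 20, of which HepG2 carries extra copies of some, it was 17.4 points (15.9 to 19). These subsets were chosen after the data were seen.

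The chromosomes at the extremes differed in the same direction. On chromosome 4, 114 of 542 coding-start regions were wide (21.0%, 17.8 to 24.7), followed by chromosome 13 with 18.6% and chromosome 6 with 17.8%. Chromosome 19, the most gene-dense, had 2 of 568 (0.352%, 0.0966 to 1.27), and chromosome 22 had 0 of 194, which allows a share of up to 1.55% (3 regions of 194; the Wilson interval reaches 1.94%). Their median flanking GC was 51.3% and 49.3%, against 39.3% on chromosome 4. Chromosome 2 held the most domains, 253, at 1.04 per Mb, and chromosome 6 the most per Mb, 1.16. As a share of all merged regions, however, chromosome 2 had 1.17% wide and chromosome 4 had 2.61%.

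**Figure D4:**
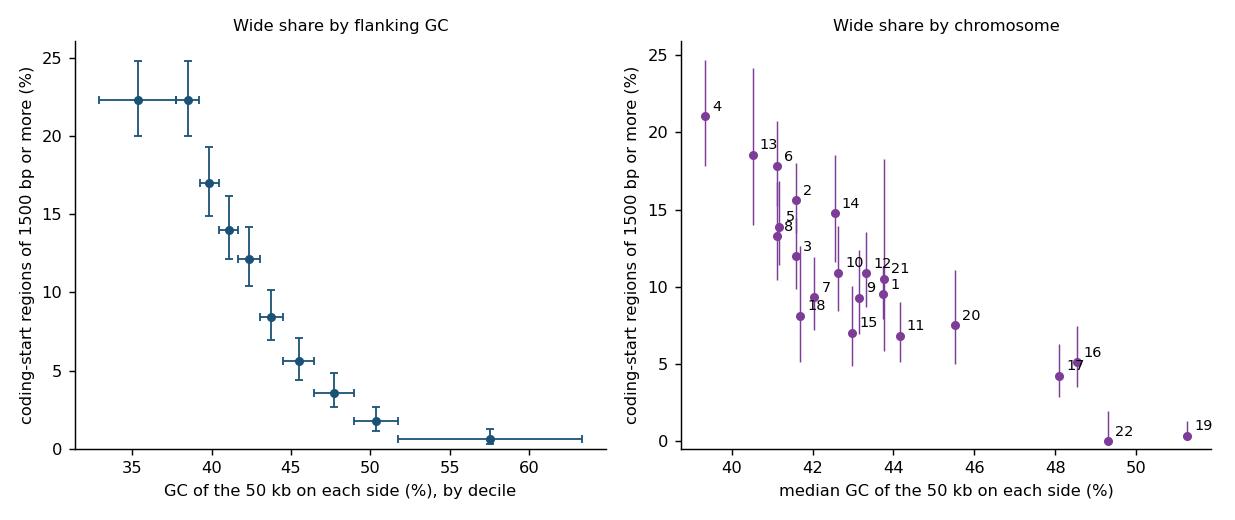
Percent of coding-start regions that were 1500 bp wide or more, with Wilson 95% intervals as vertical bars, against the GC content in percent of the 50 kb on each side: by deciles of the regions (left, horizontal bars give each decile's range) and by chromosome (right, numbers name the chromosome). The share fell from 22.3% to 0.612% over the deciles, and chromosomes 19 and 22 lay lowest.

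At start sites the domains reached further into the gene than away from it. In the domains with 1 coding gene, the median extent was 750 bp upstream and 884 bp downstream of the start in NTG (896 domains), 748 and 852 bp in siINO80#1 (897) and 720 and 795 bp in siINO80#2 (895). The downstream side was the longer in 55.2%, 56.4% and 53.1% of them. The strongest summit lay a median of 88, 81 and 90 bp upstream of the start in NTG, siINO80#1 and siINO80#2, within 250 bp of it in 62.7%, 71.8% and 68.3%. From NTG to siINO80#1 the extent changed by a median of -2 bp upstream and 5.5 bp downstream, and from NTG to siINO80#2 by -18 and -35 bp. Single domains moved much more, with median absolute changes of 81.5 and 106 bp in siINO80#1 and 87 and 100 bp in siINO80#2.

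**Figure D5:**
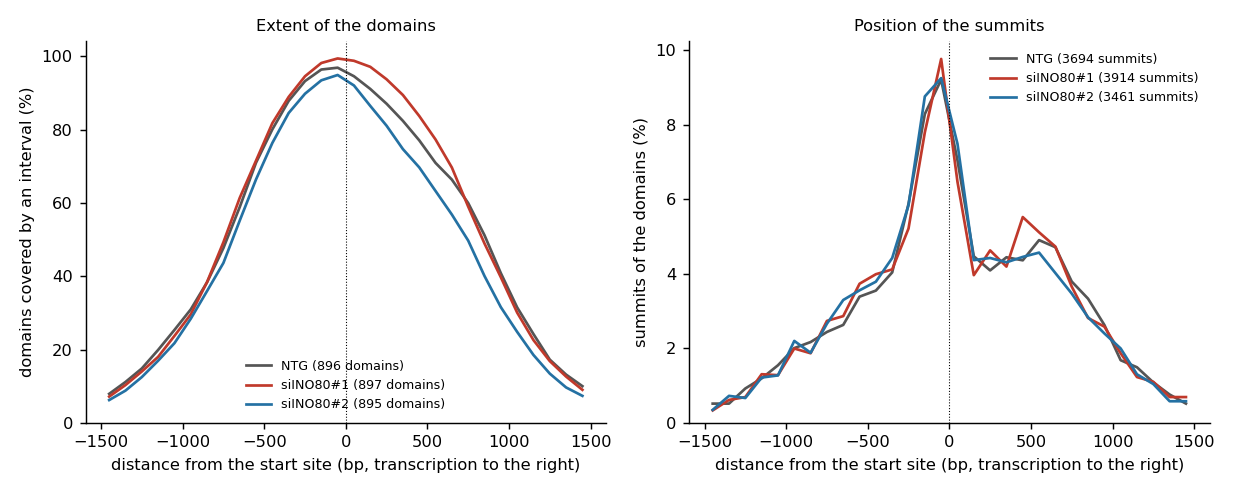
Domains with 1 coding gene aligned at its start site (0, transcription to the right), in bins of 100 bp: percent of domains covered by an interval (left) and percent of all summits of these domains (right), for the NTG, siINO80#1 and siINO80#2 lists. Summits peaked just upstream of the start and were spread more thinly on both sides, and coverage was lowest in siINO80#2 in every bin on both sides of the start.

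A start site of 1498 of the 19222 protein-coding genes lay in a wide domain (7.79%). Against that share, abundant housekeeping RNA genes had 6 of 17 and histone cluster genes 13 of 69, while HOX genes had 1 of 39, sterol and lipid genes 0 of 15, liver transcription factor genes 1 of 23 and liver secreted protein genes 1 of 20. AP-1 and immediate early genes had 4 of 23, INO80 complex genes 2 of 15, and p53 and stress genes 1 of 15. The lists differed before width came in: 11148 of all protein-coding genes had a start in a region of any width. So did 3 of the 39 HOX genes, 42 of 69 histone genes and 12 of 15 sterol and lipid genes. Among liver genes it was 18 of 23 for transcription factors and 17 of 20 for secreted proteins. The other lists had 16 of 17 abundant housekeeping genes, 20 of 23 AP-1 and immediate early genes, 15 of 15 INO80 complex genes and 12 of 15 p53 and stress genes. The counts in wide domains were not adjusted for this. Genes of a list can share a domain, so these counts are a description.

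Replication-dependent histone genes supply histones in S phase and are clustered on chromosome 6. The 13 genes lay in 10 domains, 9 of them on chromosome 6. Of the 10, 9 were wide in NTG, 8 in siINO80#1 and 5 in siINO80#2. Over all 1797 domains these counts were 1066, 1226 and 778, so siINO80#2 held the fewest there as well. The windows of the 10 histone domains had a median GC content of 48.4% (45.1 to 57.0%), against 60.9% over all wide regions with a coding start. A CCAAT match lay at the strongest summit of 7 of the 10, against 29.7% of all wide regions with a coding start. The domain of H2BC3 and H3C3 at chr6:26043613-26046415 measured 2687 bp in the NTG list, 2592 in siINO80#1 and 2202 in siINO80#2, and that of H1-2, a linker histone gene, at chr6:26054483-26057209 measured 2727, 1837 and 2197 bp. H2AC8 at chr6:26215553-26218235 went from 2683 bp in NTG to 1580 bp in siINO80#1 and to 1 bp under the width limit in siINO80#2. H4C8 at chr6:26285285-26286791 was narrower in NTG, with 864 bp against 1507 bp in siINO80#1 and 928 bp in siINO80#2. In siINO80#2 it was split, with 1215 bp covered.

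Housekeeping domains varied in either direction. The start of HSPA8, a constitutive heat shock protein gene, at chr11:122932208-122934192 measured 1616, 1698 and 1650 bp in NTG, siINO80#1 and siINO80#2. That of HSP90AB1 at chr6:44213180-44215173 measured 1702, 1994 and 1401 bp, and that of EEF1A1 at chr6:74229916-74231800 measured 1061, 1885 and 1497 bp. Where split, the HSP90AB1 domain was covered for 1619 bp in siINO80#2 and the EEF1A1 domain for 1466 bp in NTG. NPM1 and NCL encode nucleolar proteins, and their domains at chr5:170814274-170815921 and chr2:232328539-232330043 had widths of 1648, 801 and 1505 bp and of 1424, 1505 and 1036 bp. The NPM1 domain was split in siINO80#1, where 2 intervals covered 1136 bp. TUBA1B, a tubulin gene, at chr12:49524054-49525575, was wide in siINO80#2 alone, at 1113, 1266 and 1522 bp.

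Of the immediate early genes, SGK1, a kinase gene induced by serum and glucocorticoids, kept the same domain in all lists at chr6:134495209-134496883, with 1662, 1663 and 1640 bp. EGR2, a zinc finger factor gene, at chr10:64576122-64577981 was 1860 bp in NTG and split in the others, to at most 939 bp in siINO80#1 and 1157 bp in siINO80#2. KLF6 at chr10:3827189-3829109 measured 1736 and 1916 bp in NTG and siINO80#1 and 537 bp in siINO80#2. ZFP36L2, whose product promotes decay of messenger RNAs, at chr2:43453234-43455029 measured 1796, 1629 and 1156 bp. At EGR2 and ZFP36L2 NTG held the widest interval, and at KLF6 and SGK1 siINO80#1 did.

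FOXA1, which encodes a pioneer transcription factor of liver, had its start in chr14:38063483-38065812 together with that of TTC6, at 1689 bp in the NTG list, 2259 in siINO80#1 and 1548 in siINO80#2. This domain was split in NTG and siINO80#2, where 2 intervals each covered 2042 and 1893 bp. With 161, 237 and 247 reads, the strongest summit of the FOXA1 domain was among the best covered of the named domains. Its fold enrichments of 5.16, 5.10 and 5.74, however, lay below the medians of wide intervals in these lists (6.92, 6.82 and 6.44). MDM2, the gene of the ubiquitin ligase of p53, at chr12:69201394-69203017 measured 1553, 1624 and 1389 bp. HOXD1 at chr2:177051716-177053519 was the lone HOX gene and was wide in NTG alone, at 1804 bp, with 1407 bp in siINO80#2 and 250 bp less than the limit in siINO80#1.

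The gene targeted by the siRNAs was itself a member. The INO80 domain at chr15:41407563-41409110 was 1548 bp with 5 summits in NTG, 823 bp with 2 summits in siINO80#1 and 610 bp with 1 summit in siINO80#2. Its strongest summit had 22, 35 and 30 reads and fold enrichments of 4.51, 4.95 and 4.09, so the interval was narrower in both siINO80 lists while the fold enrichment was lower than in NTG in siINO80#2 alone. These values do not measure the knockdown.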

How the data were processed

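Open chromatin of HepG2 cells was read out by ATAC-seq after NTG, siINO80#1 or siINO80#2, with 9 samples in 3 groups taken from the labels. The submitters' processing notes name Trim Galore 0.4.1, Bowtie2, SAMtools, MACS2, deepTools 2.2.4 and the build hg19 without their roles. Whether reads were shifted for the transposase offset, and how the peak lists were filtered, was not given in the sources used here, and either could move edges by a few bp or remove weak intervals. The authors deposited 1 narrowPeak list per siRNA, so the replicates had been pooled or called together. Its positions are in bp, and the deposited rows, in the narrowPeak format, give each summit a fold enrichment ratio over local background and p-values and q-values as −log10, all relative to the same list. Read depth is unknown. Reads and background at a summit were solved from the deposited fold enrichment ratio and −log10 p under a Poisson model, to a tolerance of 0.01 in −log10 p, and this gave a value for 99.99% of siINO80#1 and siINO80#2 summits. Relative reads were the lowest background of a list (3.82, 5.16 and 5.34 reads in NTG, siINO80#1 and siINO80#2) over its shortest interval (148, 140 and 144 bp). That interval was assumed to equal the fragment length used in peak calling, so the estimate is rough.

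Rows with the same start and end were taken as 1 interval with several summits. Intervals of 1500 bp or more on chromosomes 1 to 22 were merged across lists at distance 0. For comparison, all intervals were merged and placed in 4 classes by the widest interval. Each region was compared with GENCODE release 44 lifted to GRCh37. GC content was taken over 1500 bp at the midpoint and over 50 kb on each side, and 10 motifs were searched in the 200 bp at the strongest summit. Shares have Wilson 95% intervals and differences Newcombe 95% intervals, which cover counting error only. No p-value was computed, since each siRNA had 1 list. The members, gene lists and comparisons were chosen with earlier results of these data known.

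The domains named were the 6 longest, the 6 with the largest minimum width over the lists, the 4 with the most summits in 1 interval, the 4 wide in NTG with the least coverage in the siINO80 lists, the 4 wide in both siINO80 lists with the least NTG coverage, and every domain with a start of a gene of the lists. Alternatives were a width limit lower by 250 bp and one of 2000 bp, lists cut to the same number of strongest or of widest intervals, summits with a −log10 q of at least 5, merging at 500 bp, covered bases, other start site rules and a window of 100 bp. The merging was tested on simulated data, where all 2622 domains were found in their true class, and gave the same 1797 domains as bedtools. The work used bedtools 2.31.1, pysam 0.24.0 and matplotlib 3.10.9 with pandas 2.3.3, scipy 1.17.1 and numpy 2.4.6 under Python 3.11.15.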

Additional observations from a re-analysis of the deposited data

Results flagged for a closer look

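The 2 siRNAs against INO80 differed from NTG in opposite directions in 6 measures of wide intervals. With 1 list per siRNA, none of these differences was tested. The number of wide intervals was 160 higher in siINO80#1 and differed by -288 in siINO80#2. The siINO80#2 list was also shorter, with 52399 intervals of any width against 68784 in NTG. The share of wide intervals among all intervals differed from NTG by 0.244 percentage points in siINO80#1 and by -0.065 in siINO80#2. That share of siINO80#2 (1.48%) lay inside the Wilson 95% interval of NTG (1.46 to 1.64). The share of wide intervals in covered bases differed by 0.911 and -0.473 points, and that in summits by 0.722 and -0.402 points. Over the 1797 domains, the median of the widest interval differed from NTG by 45 bp in siINO80#1 and by -110.5 bp in siINO80#2, and the median of covered bases by 36 and -79 bp. Estimated reads were 1.43 and 1.44 times those of NTG in siINO80#1 and siINO80#2.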

How the results depend on the processing

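Of 205 values recomputed under the alternatives, 125 stayed close (shares and medians within their 95% interval, counts within 1.5 times, differences with the same sign and the interval on the same side of 0), 78 moved, 1 lost its call and 1 reversed. A width limit lower by 250 bp gave 3859 domains and 2430, 2742 and 1833 wide intervals in NTG, siINO80#1 and siINO80#2, with 28.8% of domains wide in all 3 lists, 63.2% with a coding start and a median GC content of 55.6%. A limit of 2000 bp gave 341 domains and 185, 220 and 123 intervals, 16.1% wide in all 3 lists, 76.8% with a coding start, a GC content of 59.6% and, in an alternative chosen after seeing the data, a median of 6, 6 and 6 summits. There the AP-1 difference, both siINO80 lists minus NTG alone, reversed to -3.70 points (-15.8 to 17.3), and among domains without a start it was 25.7 points (-9.09 to 63.8); the numbers of domains were smaller by construction. With the same number of widest intervals in each list, siINO80#1 held 778 and the median log2 width ratio of siINO80#2 over NTG was -0.053. Counting covered domains at 50% or more put 89.0% in all 3 lists, counting summits with a −log10 q of at least 5 gave a median of 3, 3 and 3, and a start of any gene lay in 73.6%. The difference in wide share between low and high flanking GC kept its direction under every alternative that was run, from 4.44 to 29.6 points.

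Leaving out each replicate was not run, because the files used held no values per replicate. No paired analysis was possible because the replicates of each siRNA shared 1 list.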
